A study of Mus musculus with 6 samples.

Results

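Whole hearts of TTg mice 3 months after myocardial infarction were compared with whole hearts of control (Ctrl) mice 2 months after infarction, as 2 arrays against 2. These 4 arrays were chosen by their labels from the 6 of the series, and the remaining 2, Ctrl hearts at 3 months, served to show where each gene lay between the 2 groups. Each array held RNA of 1 male mouse heart, in which the left coronary artery had been ligated at 8 weeks of age, on the Clariom S mouse platform. Ctrl mice carried Tcf21iCre and a Tomato reporter. TTg mice carried both of these and MGTH2A, a transgene for 4 cardiac factors, Mef2c, Gata4, Tbx5 and Hand2. All 3 groups therefore shared the infarct, the Cre and the reporter. The promoter of Tcf21, a gene of resident cardiac fibroblasts and epicardial derivatives, drives the Cre, so the factors are meant for cells of that lineage. The labels do not say when the Cre was activated, and mice whose ejection fraction stayed high soon after surgery had been left out. TTg and Ctrl at 2 months differ both in genotype and in time since infarction, and the 2 cannot be told apart from these 4 arrays alone.

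Direct cardiac reprogramming is the conversion of fibroblasts into cardiomyocyte-like cells by forced expression of cardiac transcription factors. After an infarct, fibroblasts become activated, lay down collagen and matricellular proteins and then settle into a mature scar, while macrophages clear debris and persist in the scar at lower density. The surviving myocardium is under load and expresses fetal and stress genes. Whole-heart RNA mixes all of these cells, so that fewer cells of a type and less RNA per cell cannot be told apart in any value below.

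The table held 22206 array features with deposited log2 signals, of which 19572 carried 1 gene symbol, for 19505 genes. Array medians lay between 4.91 and 5, and replicates correlated across features at 0.984 to 0.989. Of 10 ventricular muscle markers, all were at 14.18 or more on every array, and Myl2 at 19.93 and Pln at 19.89 on all 6 were at or near the top of the scale, where differences cannot be seen. Ctrl 2-month replicate 1 stood apart in genes of other tissues. The mean of the 14 skeletal muscle genes measured was 7.09 on that array and 4.56 to 4.84 on the other 5, and the mean of 9 adipocyte genes was 6.16 against 4.16 to 4.58. Myh2, a fast skeletal myosin, was at 10.51 there and at 3.31 to 3.81 elsewhere, and Adipoq, the adipocyte hormone adiponectin, at 10.34 and 3.98 to 4.83. Ctrl 3-month replicate 2 was low in atrial genes, with Myl4 at 5.90 and Sln at 5.53, where the other 5 arrays had at least 14.39 and 12.73. The median difference of each list is therefore followed by its range when each of the 4 compared arrays was left out in turn, the former included. The latter does not enter the difference of TTg from the 2-month controls, only its error.

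No feature passed limma's test for TTg against Ctrl at 2 months at an adjusted p under 0.05 (0 of 22206, 0%), and the smallest adjusted p was 0.0762, for Adh1. At an unadjusted p under 0.05 there were 2156 features (9.71%), 955 higher (4.3%) and 1201 lower (5.41%) in TTg. Of these, 321 higher (1.45%) and 565 lower features (2.54%) differed by at least 2-fold. Among the alternatives, 5 features passed with the replicate number as a block, all lower in TTg, namely Rmrp, Adh1, H4c14, Sfrp2 and Comp, and leaving out 1 array gave 4 (Ctrl 2-month replicate 1), 22 (Ctrl 2-month replicate 2) and 9 (TTg replicate 1). Leaving out 1 array leaves 1 array in its group and takes that pair's spread out of the error, so that features can pass through that alone. The block likewise takes the spread shared by same-numbered replicates out of the error, although no label ties these numbers. The TTg and Ctrl 2-month pairs did not overlap in 40.1% of features, higher in TTg in 21.2% and lower in 18.9%. If arrays were exchangeable and without ties, 2 pairs would fail to overlap with a probability of 0.333. Since none passed, the 12 highest and 12 lowest differences described next come from those at an unadjusted p under 0.05 with no overlap, and their adjusted p lay between 0.0762 and 0.512. An exact permutation of 2 against 2 arrays cannot give a p below 0.333. Errors are the SE of the difference on the log2 scale from the fit to all 6 arrays, with n = 2 in each group.

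Bmp10, a bone morphogenetic protein made in atrial muscle, had the highest difference. It was at 11.92 and 11.46 in TTg, at 2.40 and 6.88 in 2-month Ctrl and at 2.87 and 3.04 in 3-month Ctrl. The TTg pair lay far above all 4 Ctrl arrays, whereas the 2-month controls were themselves far apart and all Ctrl values but 1 lay under 3.65, the 30th percentile of feature means, so that its size rests on dim signals. TTg exceeded the 2-month controls by 7.05 ± 1.21 (adjusted p = 0.340). Without Ctrl 2-month replicate 1 it was 4.81 and without Ctrl 2-month replicate 2 it was 9.29. Each of these fits leaves 1 control at 2 months and takes the spread of that pair out of the error. Their p-values are therefore not given. Bmp10 passed in no alternative that kept both 2-month controls.

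The 4 genes of the transgene are given next, of which Mef2c was among the 12 highest. Mef2c, a MADS-box factor, was at 15.93 and 13.94 in TTg, 12.16 and 12.07 in 2-month Ctrl and 12.52 and 12.87 in 3-month Ctrl. Its difference from Ctrl at 2 months was 2.82 ± 0.58 (adjusted p = 0.340). Tbx5, a T-box factor of atria and conduction tissue, was at 10.72 and 9.31 in TTg, 7.79 and 7.98 in 2-month Ctrl and 6.42 and 7.47 in 3-month Ctrl, a difference of 2.13 ± 0.52 (adjusted p = 0.340). Both TTg arrays exceeded all 4 Ctrl arrays for these 2 genes, and the higher value belonged to TTg replicate 1. Hand2, a basic helix-loop-helix factor, was at 9.40 and 8.13 in TTg, 7.53 and 7.03 in 2-month Ctrl and 8.01 and 7.57 in 3-month Ctrl, a difference of 1.485 ± 0.44 (adjusted p = 0.394). The TTg pair was above all Ctrl arrays here too, by 0.12. Gata4, a zinc finger factor of the GATA family, was at 14.05 and 13.43 in TTg, 12.80 and 13.00 in 2-month Ctrl and 13.22 and 13.75 in 3-month Ctrl (0.84 ± 0.31, adjusted p = 0.472). For Gata4 the TTg pair lay above the 2-month pair alone and overlapped the 3-month pair. Without TTg replicate 1 the differences of Mef2c, Tbx5, Hand2 and Gata4 were 1.825, 1.425, 0.85 and 0.53, all still higher in TTg. The array does not separate transcripts of the transgene from those of the endogenous genes. Tcf21 itself was at 5.23 and 4.98 in TTg, 8.48 and 4.98 in 2-month Ctrl and 7.51 and 6.42 in 3-month Ctrl. Its difference of −1.625 ± 0.997 (adjusted p = 0.648) rested on Ctrl 2-month replicate 1 and was 0.125 without it.

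Other genes of the 12 highest differed in where the 3-month controls lay. TTg was above every Ctrl array in Tmem94, at 12.91 and 12.47 in TTg and at most 11.71 in any Ctrl array (2.82 ± 0.57), and Iqgap2, a cytoskeletal scaffold, at 8.25 and 7.65 in TTg and at most 6.60 in Ctrl (2.135 ± 0.39). Acta2, the smooth muscle actin of mural cells and myofibroblasts, was at 14.67 and 14.62 in TTg, 13.35 and 11.48 in 2-month Ctrl and 12.82 and 13.69 in 3-month Ctrl (2.23 ± 0.59). Dennd4b was at 8.70 and 9.29 in TTg, 6.66 and 6.94 in 2-month Ctrl and 7.56 and 9.10 in 3-month Ctrl (2.195 ± 0.49), overlapping the 3-month controls. Gpr158 and Gpr157, orphan G protein-coupled receptors, also had both TTg values above all Ctrl values, with differences of 2.29 ± 0.71 and 2.175 ± 0.52. Tfrc, the transferrin receptor of cellular iron uptake, was at 12.17 and 10.41 in TTg, 8.76 and 8.71 in 2-month Ctrl and 9.48 and 10.29 in 3-month Ctrl (2.555 ± 0.56), so that the 3-month controls lay between the other pairs. Kdr, the main VEGF receptor of endothelium, was at 15.04 and 14.44 in TTg, 12.41 and 12.79 in 2-month Ctrl and 13.81 and 14.40 in 3-month Ctrl (2.14 ± 0.33). Mmp12, the macrophage elastase, was at 9.92 and 6.26 in TTg, 4.30 and 4.01 in 2-month Ctrl and 6.59 and 11.26 in 3-month Ctrl. The splicing factor gene Cwc22 was at 6.89 and 11.02, 5.27 and 5.67, and 7.03 and 7.37 in the same order. For Kdr, Mmp12 and Cwc22 the 2-month pair was at least 2-fold below the other 4 arrays. Part of the size of the differences of Mmp12 (3.935 ± 1.59) and Cwc22 (3.485 ± 1.12) came from 1 TTg array each. The differences were 2.105 and 1.42 when TTg replicate 1 and TTg replicate 2, respectively, were left out. Without TTg replicate 1 the difference of Cwc22 was 5.55, but that fit leaves 1 TTg array and takes the spread of the pair out of the error.

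The 12 lowest differences were led by Angptl7, a secreted angiopoietin-like protein. It was at 6.25 and 4.55 in TTg, 10.61 and 10.41 in 2-month Ctrl and 10.47 and 6.78 in 3-month Ctrl (−5.11 ± 1.10, adjusted p = 0.340). Both TTg values lay below all Ctrl values, although Ctrl 3-month replicate 2 came within 0.53 of them. Rmrp, the RNA component of an RNA-processing ribonuclease, was at 12.40 and 10.91 in TTg, 16.71 and 15.81 in 2-month Ctrl and 14.24 and 12.49 in 3-month Ctrl (−4.605 ± 0.69, adjusted p = 0.340). With the replicate block its adjusted p was 0.0199 (range over the alternatives 0.0199 to 0.867). The 3-month controls of Rmrp lay between the other pairs. Adh1, an alcohol and retinol dehydrogenase, was at 8.26 and 8.53 in TTg, 11.48 and 11.93 in 2-month Ctrl and 8.14 on both arrays of Ctrl at 3 months. The difference of −3.31 ± 0.26 had an adjusted p of 0.0762, and 4 of 14 alternatives passed (range 0.0319 to 0.313). Beside it, Ctrl at 3 months against Ctrl at 2 months differed by −3.565 ± 0.26 and passed (adjusted p = 0.0457, the 1 feature of 22206 that did, 0.0045%), and TTg against Ctrl at 3 months differed by 0.255 ± 0.26. These comparisons share arrays. Aldh1a1, a retinaldehyde dehydrogenase, was at 7.58 and 8.58 in TTg, 11.54 and 11.41 in 2-month Ctrl and 11.45 and 8.28 in 3-month Ctrl (−3.395 ± 0.91), so that 1 of the 3-month controls lay near each of the other pairs.

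Matrix genes made up a further part of the lowest 12. Ccn5, a matricellular protein, was at 6.93 and 5.66 in TTg, 10.55 and 9.35 in 2-month Ctrl and 10.94 and 8.56 in 3-month Ctrl (−3.655 ± 0.81). The proteoglycan genes Fmod and Omd differed by −2.89 ± 1.21 and −3.055 ± 0.51. For Fmod the 3-month controls, at 10.16 and 6.59, overlapped the 2-month controls, at 8.90 and 6.31, while TTg was at 5.18 and 4.25, and for Omd, at 6.89 and 5.48, they lay between the 2-month pair, at 8.15 and 7.82, and TTg, at 5.43 and 4.43. The remaining genes were the histone genes H2ac15 (−3.105 ± 0.94) and H4c14 (−2.90 ± 0.79), Gabra3, a GABA receptor subunit (−2.91 ± 0.57), Nrg1, the neuregulin ligand of ErbB receptors (−2.905 ± 0.97), and Pkhd1l1 (−2.83 ± 0.65). The adjusted p of H4c14 was 0.369 in the main fit and 0.0327 with the replicate block, the 1 of 14 alternatives in which it passed.

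The 3-month controls were used to sort the larger differences. There were 265 genes with a higher and 496 with a lower TTg mean that differed at least 2-fold at an unadjusted p under 0.05 with no overlap between TTg and Ctrl at 2 months. Of the 265 higher genes, 93 had the TTg pair above the other 4 arrays but not the 2-month pair below the other 4. In 95 the 2-month pair was below the other 4 but the TTg pair was not above the other 4. In 59 both held, with the 3-month controls between, and in 18 neither held. Of the 496 lower genes the same counts were 201, 143, 113 and 39. The 3-month controls lay outside the range of the other 4 arrays on 1 side for 12 of the 265 and 19 of the 496. They lay beyond the 2-month pair in 3 and 7 of these and beyond the TTg pair in 9 and 12. Genes chosen for separated TTg and 2-month values have a wide range over these 4 arrays, so these counts cannot be compared with all features. Among all features, the 3-month controls were both within the range of the other 4 arrays in 9161, both outside on the same side in 3089 (13.9%) and outside on opposite sides in 1079.

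Counted over all features, the TTg pair stood apart from the 4 Ctrl arrays in 3742 (16.9%), 1931 higher (8.7%) and 1811 lower (8.16%). The same count was 3089 for the 3-month Ctrl pair, 1601 higher (7.21%) and 1488 lower (6.7%), and 3890 (17.5%) for the 2-month Ctrl pair, 1907 higher (8.59%) and 1983 lower (8.93%). If arrays were exchangeable and without ties, a given pair would stand apart from the other 4 with a probability of 0.133. With a gap of at least 1 on the log2 scale, which is 2-fold, the counts were 31 features (0.14%) for TTg, 23 (0.104%) for the 3-month controls and 41 (0.185%) for the 2-month controls. In limma 0 features passed for TTg against the mean of both Ctrl groups, with 1946 (8.76%) at an unadjusted p under 0.05, and 0 for Ctrl at 3 months against the mean of the other groups, with 1555 (7.0%). With the replicate block 11 and 1 features passed. The nearest to the threshold in both was Jchain, with an adjusted p of 0.0756 and 0.0744.

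In 11 named genes both TTg arrays were at least 2-fold above all 4 Ctrl arrays (15 features, 0.0675% of all). These were Bmp10, Tbx5, Lrrc4b, Gm6710, Gm14403, Prdm9, Tmprss13, Mef2c, Iqgap2, Reep1 and Myl7. Lrrc4b, a leucine-rich synaptic adhesion protein, was at 8.58 and 8.87 in TTg, 6.36 and 7.29 in 2-month Ctrl and 5.03 and 7.02 in 3-month Ctrl (1.90 ± 0.63). The predicted genes Gm6710 and Gm14403 were abundant on all arrays, at 16.33 and 16.63 and at 15.27 and 15.97 in TTg, against at most 15.17 and 14.11 in Ctrl, and each differed by 1.565 from Ctrl at 2 months. Prdm9, the histone methyltransferase that places meiotic recombination, was at 6 on both TTg arrays and at 4.48 to 4.84 in Ctrl, and Tmprss13, a membrane serine protease, at 5.27 and 5.09 against 2.99 to 4. Reep1, a protein that shapes endoplasmic reticulum, was at 9.49 and 9.16 in TTg, 7.02 and 7.89 in 2-month Ctrl and 7.57 and 8.15 in 3-month Ctrl (1.87 ± 0.36). Myl7, the atrial myosin light chain, was at 12.39 and 11.24 in TTg, 9.73 and 10.23 in 2-month Ctrl and 10.21 and 3.45 in 3-month Ctrl (1.835 ± 1.83). Of these 11 genes, Mef2c and Tbx5 are in the transgene and Bmp10 and Myl7 are atrial.

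**Figure D1:**
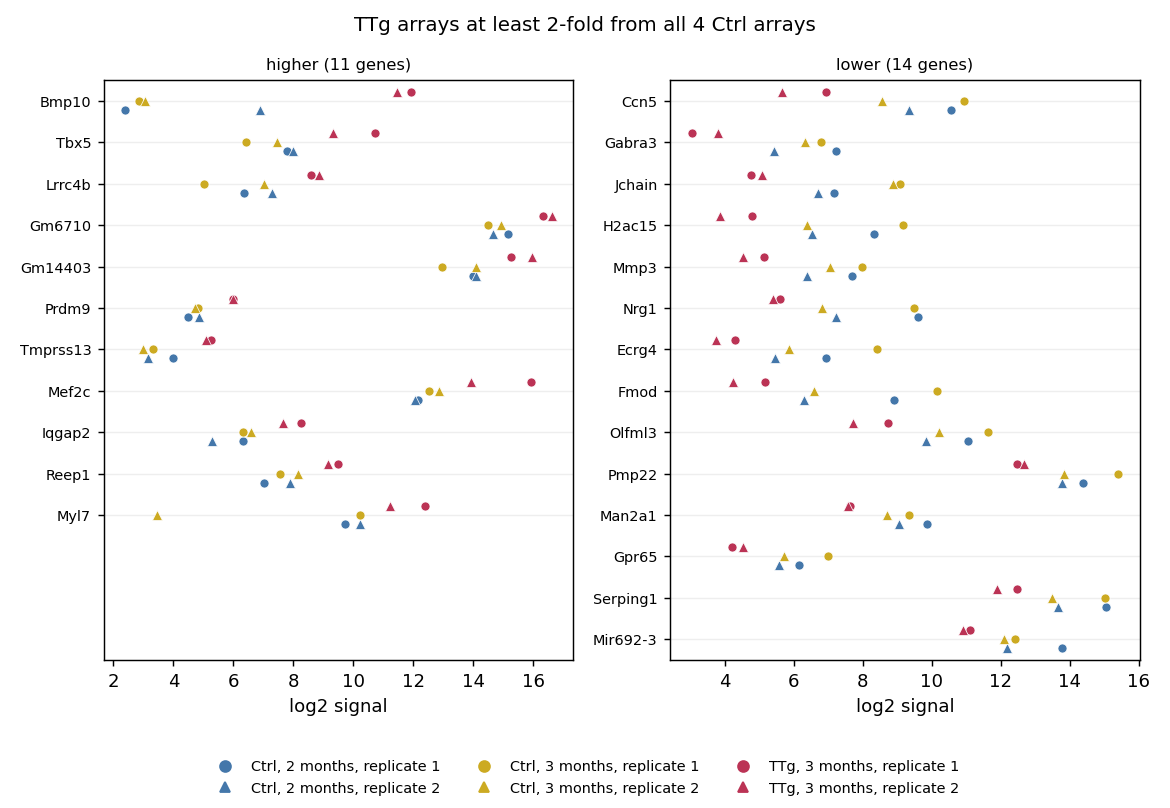
Log2 signal on each of the 6 arrays for the 11 genes whose TTg arrays lay at least 2-fold above all 4 Ctrl arrays (left) and the 14 whose TTg arrays lay at least 2-fold below them (right). Circles are replicate 1, triangles replicate 2 and colours the groups; Bmp10 has the widest gap, from 6.88 in Ctrl to 11.46 in TTg, and Myl7 has 1 Ctrl 3-month array at 3.45.

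Because GATA, T-box and MEF2 factors are encoded by the transgene, the promoters of genes whose TTg pair stood apart were searched for short core letters of their motifs. The windows were the 250 bases before the annotated start in RefSeq (GRCm38.p6), and both strands were read for the letters AGATAA as a core of binding by GATA factors, for AGGTGT as one of T-box factors and, for MEF2 factors, for CTA and TAG with any 4 bases between them. Of all 32851 promoters, 9.99% held the GATA letters, 11.8% the T-box letters and 3.2% the MEF2 letters. Of the 11 genes above, 9 were matched, with 12 promoters, of which 2 held the GATA, 2 the T-box and 1 the MEF2 letters. Of the 14 genes with the TTg pair below, 10 were matched, with 14 promoters, of which 1 held the GATA letters and 0 the others. The Bmp10 window held the GATA letters at 219 and 33 bases before the start, and the Reep1 window held them at 177 and the T-box letters at 141. Adh1, whose 2-month Ctrl values stood apart and whose TTg values did not, held the GATA letters at 150 bases before its start. The Myl7 window held no match. Each match is a description of letters and not a site. The 4 windows are printed 5′ to 3′ on the gene's strand, with matched letters in capitals. The first 3 belong to the 9 matched genes, of which the others are not printed, and Adh1 is the gene nearest to the threshold. Bmp10 had the widest gap of the 11 genes, and Reep1 and Myl7 the narrowest, at 1.01.
Bmp10, chr6:87428744-87428993, + strand: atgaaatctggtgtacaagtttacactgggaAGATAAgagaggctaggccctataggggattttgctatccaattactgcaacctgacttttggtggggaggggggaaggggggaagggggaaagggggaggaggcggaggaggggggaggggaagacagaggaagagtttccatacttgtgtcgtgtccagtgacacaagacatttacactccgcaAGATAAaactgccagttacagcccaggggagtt
Reep1, chr6:71707431-71707680, + strand: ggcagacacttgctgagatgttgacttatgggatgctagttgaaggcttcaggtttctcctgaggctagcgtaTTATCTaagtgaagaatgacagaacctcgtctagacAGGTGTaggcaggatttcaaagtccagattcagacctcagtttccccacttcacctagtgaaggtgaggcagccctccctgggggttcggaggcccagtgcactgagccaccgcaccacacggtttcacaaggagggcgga
Myl7, chr11:5898783-5899032, - strand: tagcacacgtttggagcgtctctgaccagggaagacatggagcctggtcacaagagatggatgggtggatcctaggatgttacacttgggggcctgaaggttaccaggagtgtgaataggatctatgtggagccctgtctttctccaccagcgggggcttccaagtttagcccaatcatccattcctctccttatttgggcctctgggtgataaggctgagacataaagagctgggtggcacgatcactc
Adh1, chr3:138277335-138277584, + strand: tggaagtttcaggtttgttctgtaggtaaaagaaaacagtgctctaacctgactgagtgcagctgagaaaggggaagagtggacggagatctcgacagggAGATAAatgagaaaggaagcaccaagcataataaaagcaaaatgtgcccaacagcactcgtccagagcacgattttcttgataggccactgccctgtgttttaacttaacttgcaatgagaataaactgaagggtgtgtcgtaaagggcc

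In 14 named genes both TTg arrays were at least 2-fold below all 4 Ctrl arrays (16 features, 0.0721% of all). These were Ccn5, Gabra3, Jchain, H2ac15, Mmp3, Nrg1, Ecrg4, Fmod, Olfml3, Pmp22, Man2a1, Gpr65, Serping1 and Mir692-3. Gabra3 was at 3.04 and 3.81 in TTg, 7.23 and 5.44 in 2-month Ctrl and 6.78 and 6.34 in 3-month Ctrl. Mmp3, the matrix protease stromelysin, was at 5.13 and 4.52 in TTg, 7.68 and 6.39 in 2-month Ctrl and 7.98 and 7.04 in 3-month Ctrl (−2.21 ± 0.50). Serping1, the inhibitor of complement C1, was at 12.47 and 11.89, 15.05 and 13.66, and 15.02 and 13.48 in the same order (−2.175 ± 0.61). In all 3 genes the 2 Ctrl pairs overlapped each other. Nrg1 was at 5.60 and 5.41 in TTg, 9.60 and 7.22 in 2-month Ctrl and 9.49 and 6.83 in 3-month Ctrl. Olfml3, a secreted matrix glycoprotein, differed by −2.21 ± 0.60, Ecrg4, a secreted peptide precursor, by −2.165 ± 0.82, and Pmp22, a membrane protein of myelin and other cells, by −1.495 ± 0.50. Man2a1, a Golgi mannosidase, differed by −1.85 ± 0.35, Gpr65, an acid-sensing receptor of leukocytes, by −1.50 ± 0.44, and Mir692-3 by −1.975 ± 0.49. In all 14 genes replicate 1 was the higher array of each Ctrl pair, as it was for the means of the fibroblast lists below. The same held for the means of the macrophage, interferon response and antigen presentation lists.

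Jchain links the units of secreted antibodies, and it and Nr4a1 were the 2 named genes with a gap of at least 2-fold between all 3 pairs. Jchain was at 4.75 and 5.08 in TTg, 7.18 and 6.69 in 2-month Ctrl and 9.07 and 8.87 in 3-month Ctrl. The TTg pair was lowest, the 3-month controls highest and the 2-month controls between, with no overlap. TTg differed from Ctrl at 2 months by −2.02 ± 0.27 (adjusted p = 0.321, range 0.0854 to 0.781 over the alternatives). TTg against Ctrl at 3 months differed by −4.055 ± 0.27 and passed, the 1 feature of 22206 that did so in that comparison (adjusted p = 0.0278, 0.0045%). Of 16 measured B and plasma cell genes, 13 had a higher and 3 a lower TTg mean, with a median of 0.165 (−0.0025 to 0.3525 without single arrays), and without Ctrl 2-month replicate 2 the counts were 8 and 8. The defining markers Cd79a, Ms4a1 and Mzb1 were at 2.48 to 4.06 on all arrays.

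The 3-month controls lay outside the range of the other 4 arrays, by at least 2-fold, in 18 named genes with higher values (20 features, 0.0901% of all) and 3 with lower values (3 features, 0.0135%). The 18 were Thbs1, Jchain, Cdkn1a, Vcan, Acta1, Nr4a1, Irs2, Krt80, Aqp8, Resf1, Gnao1, Bcl2, Pakap, Xirp2, Eln, Chpf, Nt5e and Rrp12. Thbs1, a matricellular activator of latent TGF-beta, was at 10.39 and 8.43 in 3-month Ctrl, 5.95 and 5.79 in 2-month Ctrl and 5.67 and 6.55 in TTg. Cdkn1a, the cell cycle inhibitor p21, was at 12.69 and 12.25, 8.54 and 8.39, and 10.65 and 8.47 in the same order, and the large proteoglycan gene Vcan at 9.68 and 9.15, 7.53 and 6.89, and 7.66 and 6.99. For each of these the TTg and 2-month pairs overlapped, and their differences were 0.24 ± 0.61, 1.095 ± 0.63 and 0.115 ± 0.36. Acta1, skeletal actin and a stress gene of cardiomyocytes, was at 18.57 and 19.30 in 3-month Ctrl, 17.13 and 15.97 in 2-month Ctrl and 16.72 and 12.78 in TTg. Nr4a1, an immediate early nuclear receptor, was at 10.47 and 8.96 in 3-month Ctrl, 5.89 and 5.59 in 2-month Ctrl and 6.91 and 7.56 in TTg, so that all 3 pairs were separated. Eln, the elastin gene, was at 9.81 and 9.10, 8.07 and 7.65, and 7.93 and 7.47 in the order of Ctrl at 3 months, Ctrl at 2 months and TTg. Thbs1, Vcan, Irs2, Krt80, Bcl2, Pakap, Xirp2, Chpf, Eln and Nt5e each differed by at most 0.27 between TTg and the 2-month controls.

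The 3 genes with 3-month Ctrl values at least 2-fold below the rest were Stard10, a lipid transfer protein, Slc40a1, the iron exporter ferroportin, and Hnmt, which inactivates histamine. Stard10 was at 7.84 and 8.03 in 3-month Ctrl, 9.63 and 9.47 in 2-month Ctrl and 9.77 and 9.45 in TTg. Slc40a1 was at 7.19 and 7.22, 8.77 and 8.31, and 8.42 and 8.36, and Hnmt at 8.81 and 9.04, 10.93 and 10.04, and 10.13 and 10.12. In each, the TTg and 2-month pairs overlapped, with differences of 0.06 ± 0.24, −0.15 ± 0.25 and −0.36 ± 0.33. With smaller gaps followed Apobec3, Hamp, Ndufs7, Mlf1, Epyc, Prxl2a and Rnf122. Hamp, the iron hormone hepcidin, was at 6.99 and 5.29 in 3-month Ctrl, 7.86 and 8.35 in 2-month Ctrl and 8.84 and 7.92 in TTg. Hnmt lay just inside the 2-fold limit, at a gap of 1, and Apobec3, at 0.92, just outside it.

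**Figure D2:**
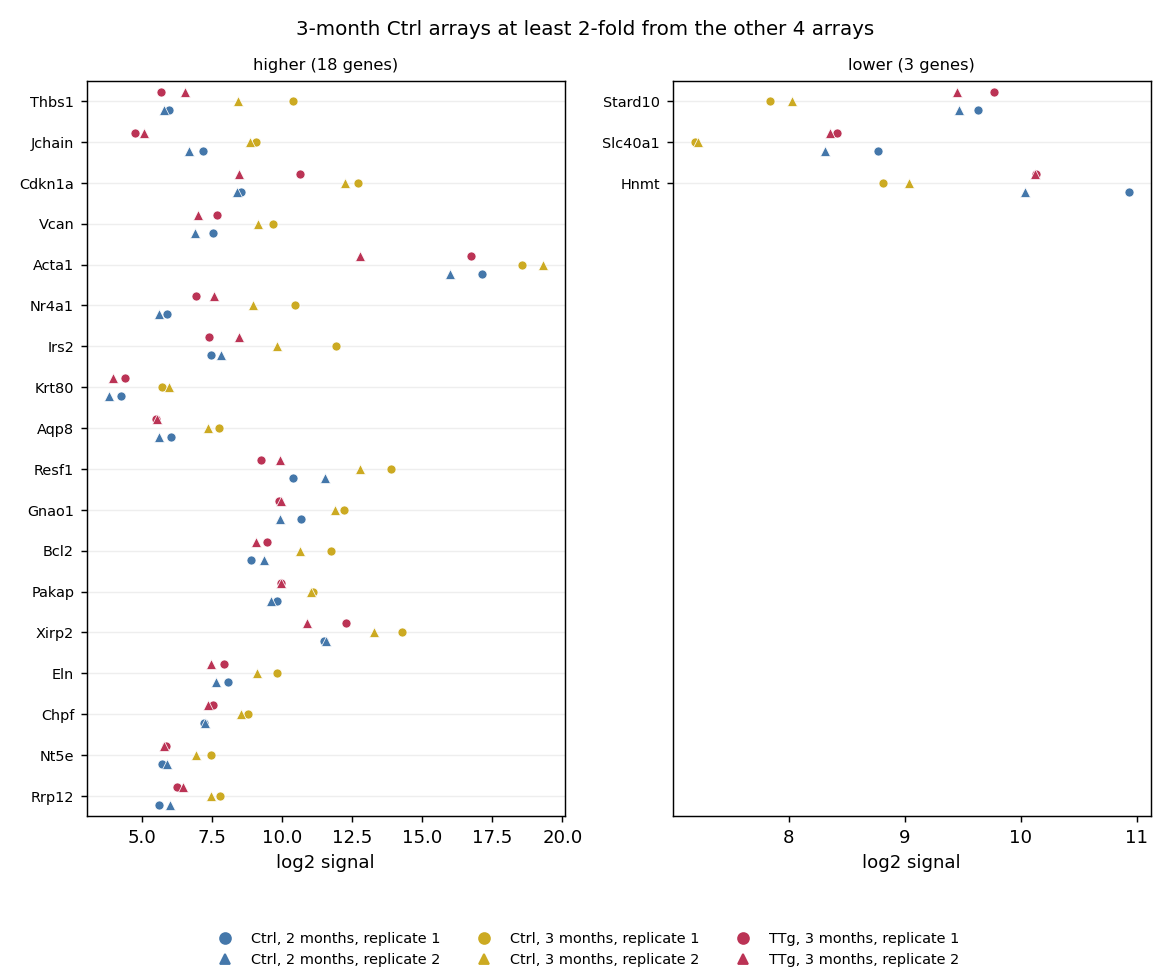
Log2 signal on each of the 6 arrays for the 18 genes whose 3-month Ctrl arrays lay at least 2-fold above the other 4 arrays (left) and the 3 whose 3-month Ctrl arrays lay at least 2-fold below them (right). Symbols and colours mark replicates and groups; in Thbs1 the 3-month controls are at 10.39 and 8.43 and the other arrays at or below 6.55.

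By gene list, the 3-month controls were outside the range on the higher side, against 7.21% of all features, in 9 of 24 immediate early genes (Fosb, Fosl2, Jun, Egr2, Atf3, Nr4a1, Ier5, Zfp36 and Myc). The same held for 8 of 17 fetal and stress genes (Myh7, Acta1, Ankrd1, Xirp2, Rcan1, Ankrd23, Fhl1 and Flnc) and for 7 of 21 fibrillar collagen and crosslinking genes (Col1a1, Col5a1, Col5a2, Lox, Loxl1, Loxl3 and P4ha1). Activated fibroblast genes were so in 5 of 19 and mural cell genes in 5 of 15. On the lower side, against 6.7% of all features, were 6 of 30 oxidative phosphorylation and TCA cycle genes, 7 of 20 retinoid and xenobiotic genes and 5 of 14 iron handling genes, among them Hamp, Hamp2 and Slc40a1. These are counts of lists chosen with earlier results known and have no test.

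The 2-month controls stood at least 2-fold apart from both 3-month groups in 15 named genes with higher values (22 features, 0.0991% of all) and 10 with lower values (19 features, 0.0856%). The 15 were Adh1, Fmo2, Inmt, Efemp1, Gsta3, Rmrp, Fmo1, Mrpl55, Pkhd1l1, Cyp27a1, Ypel5, Plac9b, Npr3, Tspan13 and Cxcl9. Fmo2, a flavin-containing monooxygenase, was at 13.14 and 12.92 in 2-month Ctrl, 10.92 and 9.79 in 3-month Ctrl and 10.19 and 10.82 in TTg (−2.525 ± 0.41). Inmt, a methyltransferase of indole amines, was at 6.58 and 6.45, 4.19 and 4.10, and 4.54 and 4.28 (−2.105 ± 0.23), and Efemp1, an elastic fibre protein, at 10.72 and 11.21, 8.94 and 8.22, and 8.70 and 8.02 (−2.605 ± 0.36). In Fmo2 and Efemp1 the 2 genotypes overlapped at 3 months, and in Inmt TTg was slightly above. TTg against Ctrl at 3 months differed by 0.15 ± 0.41 for Fmo2 and −0.22 ± 0.36 for Efemp1. Gsta3, a glutathione transferase, differed by −2.525 ± 0.56 between TTg and Ctrl at 2 months, Fmo1 by −1.695 ± 0.29 and Cyp27a1, a sterol hydroxylase, by −1.86 ± 0.26. Plac9b was at 10.33 and 10.41 in 2-month Ctrl, 9.24 and 8.73 in 3-month Ctrl and 7.59 and 7.92 in TTg (−2.615 ± 0.27), so that TTg was also below the 3-month controls.

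The 10 genes with 2-month Ctrl values below the other 4 arrays were Mmp12, Cwc22, Zfp322a, Tbx3, Chd7, Arhgef19, Kdr, Nr4a1, Tfpi and Slc15a3. Tbx3, a T-box repressor of the conduction system, was at 4.50 and 4.15 in 2-month Ctrl, 5.82 and 6.15 in 3-month Ctrl and 6.02 and 5.58 in TTg (1.475 ± 0.28). Chd7, a chromatin remodeller, was at 8.87 and 9.24, 10.41 and 10.51, and 10.31 and 10.83 (1.515 ± 0.28). Tfpi, the tissue factor pathway inhibitor, was at 11.25 and 11.18, 12.25 and 12.67, and 12.61 and 13.06 (1.62 ± 0.27). In Tbx3 and Chd7 the TTg and 3-month Ctrl pairs overlapped. The 2-month and 3-month hearts may also differ in day of harvest or array run, which the labels do not give, so that time since infarction and such differences cannot be told apart.

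**Figure D3:**
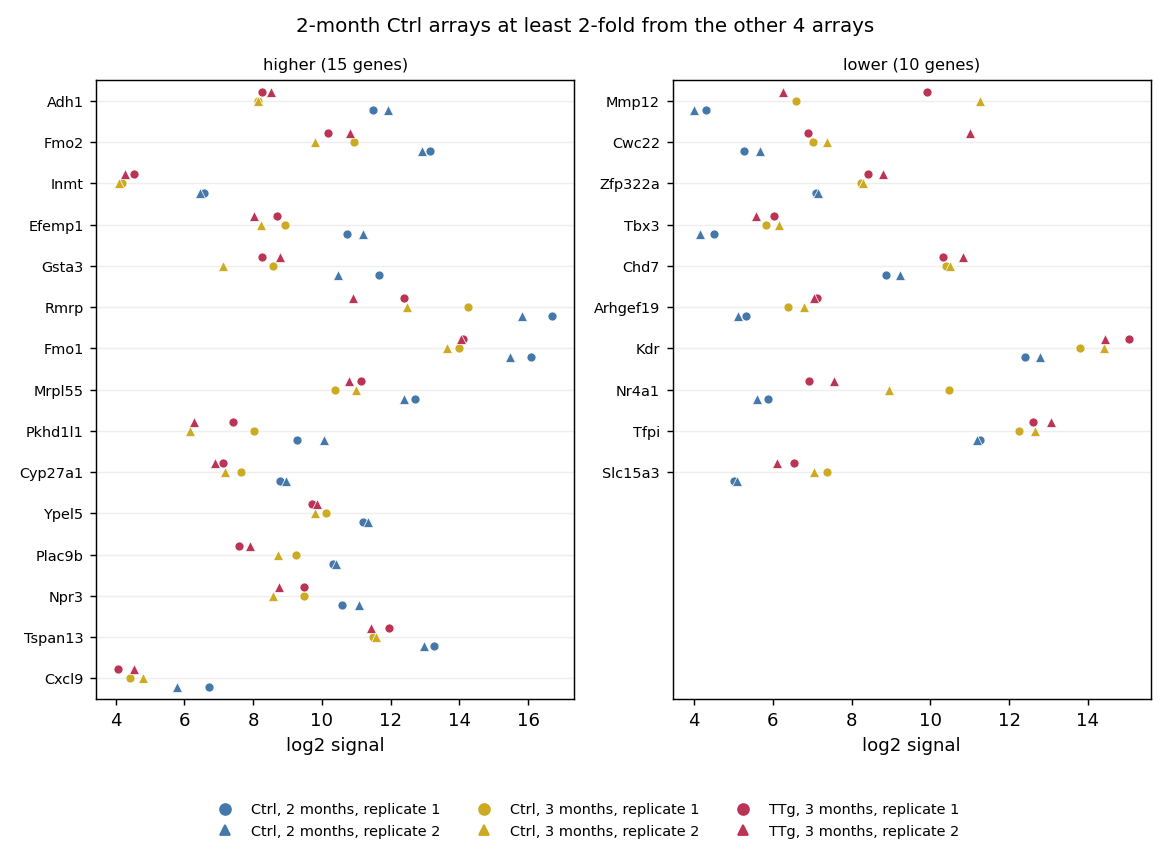
Log2 signal on each of the 6 arrays for the 15 genes whose 2-month Ctrl arrays lay at least 2-fold above the other 4 arrays (left) and the 10 whose 2-month Ctrl arrays lay at least 2-fold below them (right). Symbols and colours mark replicates and groups; for Adh1 the 2-month controls are at 11.48 and 11.93 and the other arrays between 8.14 and 8.53.

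By list, the 2-month controls were above the other 4 arrays, against 8.59% of all features, in 8 of 20 retinoid and xenobiotic genes (Adh1, Gsta3, Gsta4, Gstm1, Gstt1, Fmo1, Fmo2 and Cyp2e1) and in 9 of 30 oxidative phosphorylation and TCA cycle genes. They were so in 5 of 14 epicardial and mesothelial genes, 5 of 25 interferon response genes and 5 of 21 endothelial genes. They were below the others, against 8.93% of all features, in 7 of 15 basement membrane genes (Col4a2, Col4a5, Lama4, Lamb1, Lamb2, Nid2 and Hspg2), 5 of 15 mural cell genes (Cspg4, Notch3, Myh11, Smtn and Mcam), 6 of 20 sarcomere genes and 5 of 22 calcium handling genes.

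Gene lists were next described for TTg against Ctrl at 2 months by their members' signs, their count at an unadjusted p under 0.05 and their median difference, with its range on leaving out each compared array in brackets. The median over all features was 0.02, and 0 members of any list passed at an adjusted p under 0.05. Among macrophage and monocyte genes, 25 of 27 measured members had a lower TTg mean, 14 at an unadjusted p under 0.05 (5.41% of all features), with a median of −1.22 (−1.705 to −0.81). The TTg pair was below all 4 Ctrl arrays in 17 of the 27, against 8.16% of all features, and above them in 0. C1qb, a chain of complement C1q made by resident macrophages, was at 8.90 and 7.92 in TTg, 11.17 and 10.63 in 2-month Ctrl and 11.49 and 9.53 in 3-month Ctrl (−2.49 ± 0.64, adjusted p = 0.345). Folr2, a marker of resident macrophages, differed by −2.29 ± 0.59, and Lyz2, lysozyme of myeloid cells, by −1.95 ± 0.61. The list's mean on each array was 7.11 and 6.61 in TTg, 8.37 and 7.60 in 2-month Ctrl and 8.62 and 7.61 in 3-month Ctrl, so that neither TTg array reached any Ctrl array. Replicate 1 had the higher mean of the pair in each group. With Ctrl 2-month replicate 1 left out, 23 of 27 members were lower, with a median of −0.81. Array means of other lists were also lower on both TTg arrays than on any Ctrl array, among them matricellular, resting fibroblast, interferon response and cytokine genes.

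Among 27 cytokine and chemokine genes, 16 were lower and 11 higher, with a median of −0.215 (−0.275 to −0.065). Il33, an alarmin of stromal cells, was at 6.52 and 7.02 in TTg, 9.77 and 8.22 in 2-month Ctrl and 7.95 and 6.93 in 3-month Ctrl (−2.225 ± 0.55). Ccl12, a monocyte chemokine, differed by −2.38 ± 0.85, and Cxcl9, which interferon gamma induces, by −1.96 ± 0.36. Interferon response genes were lower in 22 of 25, 6 at an unadjusted p under 0.05 (5.41% of all features), with a median of −0.635 (−0.82 to −0.21). Ifit2 was at 5.19 and 5.71 in TTg, 7.21 and 6.91 in 2-month Ctrl and 7.02 and 6.29 in 3-month Ctrl (−1.61 ± 0.33). The TTg pair was below all Ctrl arrays in 11 members (8.16% of all features) and above them in 1, Oas3 (8.7% of all features). Without Ctrl 2-month replicate 1 the interferon median was −0.21, with 20 of 25 lower. Antigen presentation genes were lower in 16 of 17 with a median of −0.43 (−0.875 to 0.115). Their direction rested on Ctrl 2-month replicate 1, without which 11 were higher and 6 lower, with a median of 0.115. H2-DMb1, which loads peptides on class II molecules, was at 5.62 and 6.23 in TTg, 8.97 and 6.99 in 2-month Ctrl and 9.04 and 7.16 in 3-month Ctrl (−2.055 ± 0.77). Acute-phase and complement genes were lower in 12 of 17 (median −0.45, −0.74 to −0.16), with Serpina3n at −2.39 ± 1.22 and C4b at −1.815 ± 0.69. T and NK cell genes (median 0.05, −0.0575 to 0.09) had 0 of 14 members at an unadjusted p under 0.05. Neutrophil and mast cell genes (median 0.30, 0.025 to 0.295) had 1 of 15, the mast cell protease Cpa3 (−1.465 ± 0.56). Over all features the share in either direction was 9.71%.

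Matrix and fibroblast lists had lower TTg medians whose size moved with the array left out. Matricellular and proteoglycan genes were lower in 15 of 19, 6 at an unadjusted p under 0.05 (5.41% of all features), with a median of −0.99 (−1.345 to −0.335), and the TTg pair was below all Ctrl arrays in 8 (8.16% of all features). Aspn, asporin, was at 10.53 and 9.05 in TTg, 12.47 and 11.69 in 2-month Ctrl and 11.63 and 10.35 in 3-month Ctrl (−2.29 ± 0.60). Elastic fibre and microfibril genes were lower in 12 of 15 (median −0.795, −1.265 to −0.115), with Mfap5 at −1.855 ± 0.71. Activated fibroblast genes were lower in 14 of 19 (median −0.54, −0.885 to −0.13) and resting fibroblast genes in 10 of 14 (median −0.593, −1.09 to −0.2). Without Ctrl 2-month replicate 1 these 4 medians were −0.335, −0.115, −0.13 and −0.20. Replicate 1 had the higher mean of the pair in each of the 3 groups for all 4 lists, at 11.10 against 10.16 in 2-month Ctrl, 12.02 against 10.53 in 3-month Ctrl and 9.97 against 9.27 in TTg for the matricellular genes. Ctrl 2-month replicate 1 also held the skeletal muscle and adipocyte signal, and the part of either in the differences was not tested. Postn, the scar matrix protein periostin, was at 10.76 and 7.58 in TTg, 12.41 and 10.47 in 2-month Ctrl and 13.05 and 11.47 in 3-month Ctrl, and overlapped the 2-month pair (−2.27 ± 1.09). Timp1, an inhibitor of matrix proteases, was at 5.66 and 3.75 in TTg, 7.08 and 6.27 in 2-month Ctrl and 8.48 and 6.47 in 3-month Ctrl (−1.97 ± 0.80). Activated fibroblast genes did not all fall, and 5 of the 19 had a higher TTg mean. Among these was Acta2 (2.23 ± 0.59), whose difference was the second largest of that list in size, after Postn, and whose TTg pair lay above all 4 Ctrl arrays. Dpep1, a membrane dipeptidase of resting fibroblasts, had close replicates, at 8.52 and 8.64 in TTg, 10.28 and 10.57 in 2-month Ctrl and 9.67 and 9.21 in 3-month Ctrl (−1.845 ± 0.26, adjusted p = 0.321).

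Fibrillar collagen and crosslinking genes had 9 higher and 12 lower members of 21 and a median of −0.165 (−0.48 to 0.015). Without Ctrl 2-month replicate 1 there were 12 higher and 8 lower, and without Ctrl 2-month replicate 2 there were 7 higher and 14 lower. Col1a1, a chain of the main scar collagen, was at 8.49 and 7.81 in TTg, 8.63 and 6.97 in 2-month Ctrl and 9.63 and 8.81 in 3-month Ctrl (0.35 ± 0.57). Its TTg values lay within those of the 2-month controls, and the 3-month controls lay above both. Col3a1 differed by −1.61 ± 0.85, and Pcolce2, an enhancer of procollagen processing, by −1.72 ± 0.39. Basement membrane genes were higher in 11 of 15 (median 0.255, 0.04 to 0.47), with the laminin gene Lamb2 at 0.99 ± 0.31 and Col4a3 at −1.33 ± 0.28. Late scar and cartilage-like genes were lower in 11 of 15 (median −0.315, −0.735 to −0.06), and without TTg replicate 2 in 9 of 15. Sfrp2, a secreted frizzled-related protein, differed by −3.055 ± 1.46 and Comp, a cartilage matrix protein, by −2.95 ± 1.39. Comp was at 6.99 and 4.06 in TTg, 9.88 and 7.07 in 2-month Ctrl and 12.02 and 8.80 in 3-month Ctrl, so that replicate 1 was the higher array of every pair by a like amount. In the main fit the adjusted p was 0.557 for Comp and 0.564 for Sfrp2. With the replicate number as a block both had an adjusted p of 0.0327, and this was the 1 of 14 alternatives in which either passed. The block takes such a shared offset of replicate 1 out of the error, and no label ties the replicate numbers. Of 18 matrix protease and inhibitor genes 12 were lower and 6 higher (median −0.248, −0.3075 to −0.1325). The largest differences in size were those of Mmp12 at 3.935 ± 1.59, Mmp3 at −2.21 ± 0.50 and Timp3 at −1.87 ± 0.85.

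Of 22 genes of calcium handling and excitation 18 were higher and 3 lower, 6 of the higher at an unadjusted p under 0.05 (4.3% of all features), with a median of 0.465 (0.26 to 0.76). Ryr2, the calcium release channel of the sarcoplasmic reticulum, was at 16.06 and 16.49 in TTg, 14.18 and 15.23 in 2-month Ctrl and 14.95 and 15.90 in 3-month Ctrl (1.57 ± 0.45, adjusted p = 0.389). Kcnd2, a channel subunit of the transient outward current, was at 7.58 and 8.60, 5.68 and 7.03, and 7.30 and 7.72 (1.735 ± 0.51), and the background potassium channel Kcnk3 at 9.78 and 9.99, 7.74 and 8.65, and 8.90 and 9.91 (1.69 ± 0.42). For Ryr2 the TTg pair was above all 4 Ctrl arrays, and for Kcnd2 and Kcnk3 the 2-month pair was below all others. Fatty acid uptake and oxidation genes were higher in 23 of 26 (median 0.46, 0.2575 to 0.66). The TTg pair was above all Ctrl arrays in 6 of them (Cpt1a, Slc25a20, Acadm, Hadha, Etfdh and Acot2), against 8.7% of all features. Ppara, the nuclear receptor that drives this pathway, differed by 1.625 ± 0.66, and its coactivator gene Ppargc1a by 1.23 ± 0.50. Once Ctrl 2-month replicate 1 was left out these medians were 0.26 and 0.258, with 14 of 22 and 20 of 26 members higher.

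Oxidative phosphorylation and TCA cycle genes had 16 higher and 13 lower members of 30 and a median of 0.0575 (−0.015 to 0.1825). The TTg pair was above all Ctrl arrays in 6 (Ndufv1, Sdha, Uqcrc1, Cs, Idh3a and Ogdh), against 8.7% of all features, and below them in 0. Sdha, a subunit of succinate dehydrogenase, was at 14.14 and 14.78 in TTg, 13.00 and 13.80 in 2-month Ctrl and 13.30 and 13.78 in 3-month Ctrl (1.06 ± 0.37). Glycolysis genes were higher in 13 of 20 (median 0.18, 0.1825 to 0.2475), with the hexokinase genes Hk2 at 1.05 ± 0.42 and Hk1 at 0.875 ± 0.26. Sarcomere genes were higher in 13 of 20 and lower in 6, 6 of the higher at an unadjusted p under 0.05 (4.3% of all features), with a median of 0.208 (0.04 to 0.3175, the lowest without Ctrl 2-month replicate 1). Named members were Nebl at 1.10 ± 0.30 and Tcap, a Z-disc cap of titin, at −1.245 ± 0.53. Fetal and stress genes were higher in 7 and lower in 10 of 17 (median −0.39, −0.545 to 0.17), and 0 had an unadjusted p under 0.05 (9.71% of all features). Without Ctrl 2-month replicate 1 their median was −0.05, and without TTg replicate 2 it was 0.17.

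Atrial genes did not share the size of Bmp10. Of 17 measured, 10 were higher and 7 lower, with a median of 0.185 (−0.14 to 0.385), and without TTg replicate 1 there were 7 higher and 10 lower. The TTg pair was above all 4 Ctrl arrays in 3 (Bmp10, Myl7 and Kcnj3), against 8.7% of all features, and below them in 1, Clu. Kcnj3, a subunit of the acetylcholine-activated potassium channel, was at 11.68 and 11.51 in TTg, 10.13 and 11.12 in 2-month Ctrl and 9.16 and 10.33 in 3-month Ctrl (0.97 ± 0.46). Myl4 and Sln differed from Ctrl at 2 months by 0.64 ± 2.75 and −0.43 ± 2.25, errors that come from Ctrl 3-month replicate 2 through the pooled spread. Among 15 conduction system genes 9 were higher and 6 lower (median 0.01, 0.025 to 0.15). Hcn4, the pacemaker channel, was at 6.17 and 6.05 in TTg, 5.01 and 5.25 in 2-month Ctrl and 5.27 and 5.53 in 3-month Ctrl (0.98 ± 0.24, adjusted p = 0.340), above every Ctrl array with close replicates. Cntn2, a conduction system adhesion protein, was at 4.91 and 4.84, 4.51 and 4.02, and 3.74 and 4.16 (0.61 ± 0.28).

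All 14 measured epicardial and mesothelial genes had a lower TTg mean, 8 of them at an unadjusted p under 0.05 (5.41% of all features), with a median of −0.93 (−1.13 to −0.64). Gpm6a was at 9.05 and 8.31 in TTg, 11.32 and 11.02 in 2-month Ctrl and 10.18 and 8.79 in 3-month Ctrl (−2.49 ± 0.48). Upk3b, a mesothelial uroplakin, was at 7.51 and 6.74, 8.89 and 10.18, and 8.88 and 6.99 (−2.41 ± 0.68). Array means of the list were 5.10 and 4.93 in TTg, 5.99 and 6.32 in 2-month Ctrl and 6.05 and 4.96 in 3-month Ctrl, so that 1 of the 3-month controls was like each of the other groups. Leaving out Ctrl 2-month replicate 1, 13 of 14 were lower, with a median of −0.915.

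Endothelial genes went both ways, with 9 higher and 12 lower of 21 (median −0.08, −0.615 to −0.06). Beside Kdr, Npr3, the natriuretic peptide clearance receptor of endocardium, was at 9.48 and 8.75 in TTg, 10.58 and 11.09 in 2-month Ctrl and 9.49 and 8.59 in 3-month Ctrl (−1.72 ± 0.40), and Vwf differed by −1.685 ± 0.59. Pan-endothelial Cdh5 differed by 0.185 ± 0.31. Mural cell genes had a median of 0.055 (−0.11 to 0.25), with Myh11, smooth muscle myosin, at 0.885 ± 0.23. Angiogenic ligands had a median of 0.338 (0.235 to 0.56), with Vegfa at 0.87 ± 0.28 and Vegfd at −1.525 ± 0.44. Retinoid and xenobiotic genes were lower in 16 of 20 (median −0.268, −0.6825 to −0.335), and iron handling genes in 10 of 14 (median −0.178, −0.4175 to −0.06), with Trf at −1.92 ± 0.65 and the ferritin gene Ftl1 at −1.885 ± 0.58. In 3 of the iron handling genes the TTg mean was higher, and the transferrin receptor gene Tfrc differed by 2.555 ± 0.56. Cell cycle genes were lower in 19 of 26 (median −0.27, −0.4075 to −0.105), with Pcna at −0.865 ± 0.24. Hypoxia and unfolded protein genes were higher in 7 and lower in 12 of 19 (median −0.225, −0.3 to −0.225). Among the higher were Egln3, an oxygen sensor, at 0.925 ± 0.37 and the chaperone Hspa5 at 0.795 ± 0.27.

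**Figure D4:**
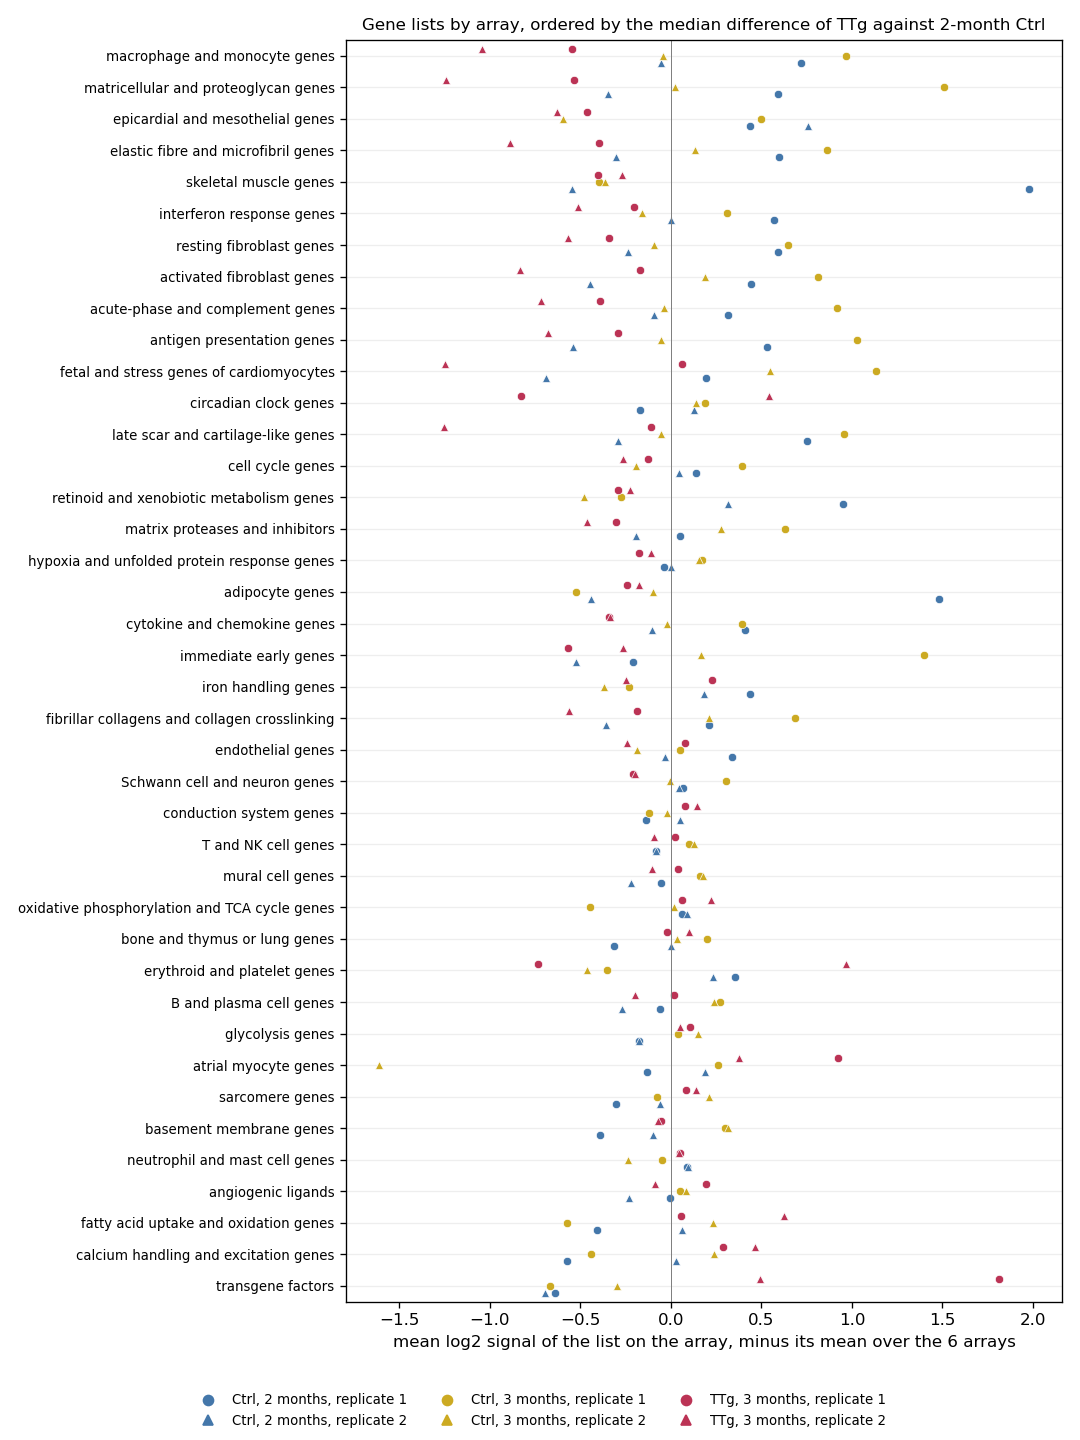
Mean log2 signal of each gene list on each of the 6 arrays, minus the list's mean over the 6 arrays, for 40 lists ordered by the median difference of TTg against 2-month Ctrl. Circles are replicate 1, triangles replicate 2 and colours the groups. Macrophage genes have both TTg arrays below all 4 Ctrl arrays, as have other lists, among them matricellular, resting fibroblast and interferon response genes. Skeletal muscle and adipocyte genes are high on Ctrl 2-month replicate 1 alone.

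Immediate early genes had 8 higher and 16 lower members of 24 (median −0.203, −0.3825 to 0.0225), and the array means were 6.76 and 7.06 in TTg, 7.12 and 6.80 in 2-month Ctrl and 8.73 and 7.49 in 3-month Ctrl. The TTg and 2-month pairs overlapped, and both 3-month controls were above them. Circadian genes separated the 2 TTg hearts from each other. Arntl, an activator of the clock, was at 9.74 and 5.19 and Dbp, one of its output genes, at 12.81 and 17.92 in TTg, against 5.92 and 5.94, and 17.51 and 17.61, in 2-month Ctrl. The circadian median of −0.34 was 0.245 without TTg replicate 1 and −1.14 without TTg replicate 2.

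Lists of other tissues were the last. Skeletal muscle genes were lower in 13 of 14 (median −0.795) with all arrays, and higher in 11 and lower in 3 without Ctrl 2-month replicate 1 (median 0.258). Adipocyte genes had medians of −0.215 and 0.215 in the same order. Schwann cell and neuron genes had a median of −0.015 (−0.155 to 0.065), with Uchl1 at −1.61 ± 0.45, bone, thymus and lung genes one of 0.0625 (−0.03 to 0.2175), with Alpl, alkaline phosphatase, at 1.565 ± 0.45, and erythroid and platelet genes one of 0.085 (−0.375 to 0.54), with array means of 5.05 and 6.75 in TTg and 5.32 to 6.14 in Ctrl.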

How the data were processed

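Labelled RNA of 6 hearts (100 ng each, RNA integrity number over 7.0) was hybridised to 6 arrays, in 3 groups of 2. The authors deposited log2 signals per array feature. The submitters' processing notes list Transcriptome Analysis Console 4.0. The summary, background and normalization methods are not given in the sources used here. Features were named through the platform table, whose Entrez IDs matched RefSeq symbols, and for the 55 symbols on several features the brightest one was used. limma 3.58.1 in R 4.3.3 fitted 1 coefficient per group to all 6 arrays (3 residual and 4.13 prior degrees of freedom), with two-sided tests and Benjamini-Hochberg adjustment over all 22206 features. A pair was apart where both its values lay above, or both below, the other 4 arrays. The 2 hearts of a group are independent animals per the series design, and their number limits the precision.

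On simulated data with this spread, the test of TTg against the 2-month controls called 1.2% of features shifted by 1, 51.6% of those shifted by 2 and 89.2% of those shifted by 4 on the log2 scale. The simulated noise was normal, with each feature's estimated variance, and independent between features and arrays. Deviations that features share on an array were not simulated, so these rates cannot be taken as those of the data. In the data Bmp10 (7.05), Angptl7 (−5.11) and Rmrp (−4.605) did not pass. The 41 lists (703 of 761 genes measured, 4 through an older symbol) and the members were chosen with earlier results of these data known. Named genes were the transgene factors, Tcf21, Jchain, Bmp10, the 12 highest and 12 lowest differences, the widest gaps of each pair (10, 10 and 5 on each side) and 3 members of each list. Further genes with a 2-fold gap, members named by where their pairs lie, and marker genes were named after their values were seen. Alternatives were quantile normalization, median centring, dim or near-saturated features left out, other priors, the 2 groups alone, a replicate block, an unadjusted threshold and leaving out each array. Counts of list members without single arrays were added after seeing the data.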

Additional observations from a re-analysis of the deposited data

How the results depend on the processing

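Counts of features past the adjusted threshold were 0 for all 3 contrasts and moved under some alternatives. A fit without 1 array leaves 1 array in its group, without the spread of that pair in its error. For TTg against Ctrl at 2 months they were 1 with features below 19 on every array, 1 with a robust prior, 5 with the replicate block, 886 at an unadjusted p under 0.05 with at least 2-fold, and 0 to 22 without single arrays. For TTg against both Ctrl groups they were 1 with median centring, 1 with features below 19, 1 with a robust prior, 11 with the replicate block, 558 at the unadjusted threshold and 0 to 9 without single arrays. For Ctrl at 3 months against the other groups they were 1 in each of these first 4 settings (the block included), 351 at the unadjusted threshold and 0 to 5 without single arrays. Same-numbered replicates deviated together across features with correlations of 0.133, 0.136 and 0.12 between the 3 pairs of groups. With 2 numbers per group and no label that ties them, the numbers were not taken as pairs. The counts of the TTg and of the 3-month Ctrl pair standing apart stayed within 1.5 times under both scalings and both filters, and those of the 2-month Ctrl pair were not run under them. Without single arrays, which leaves fewer arrays to exceed, they were 4925 to 9105 for TTg, 34 to 256 at 2-fold, 4231 to 9545 for the 3-month controls and 32 to 358 at 2-fold.

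Of 2305 alternative values of 165 named genes, 2260 kept their direction and side of the threshold, 16 newly passed and 29 changed sign. With quantile normalization Ndufs7, at 0.005, went to −0.051. The other 28 came from leaving out 1 array, and the ranges were −0.20 to 0.68 for Thbs1, −0.22 to 0.45 for Vcan, −3.77 to 0.17 for Acta1, −0.265 to 0.805 for Irs2, −0.075 to 0.375 for Krt80, −0.10 to 0.22 for Stard10, −0.38 to 0.08 for Slc40a1, −0.805 to 0.085 for Hnmt, −0.24 to 0.06 for Apobec3, −0.185 to 0.735 for Hamp, −0.07 to 0.08 for Ndufs7, −0.37 to 0.70 for Prxl2a, −0.315 to 0.405 for Rnf122, −3.375 to 0.125 for Tcf21, −0.785 to 4.635 for Nr4a3, −4.75 to 0.36 for Dbp, −0.74 to 3.81 for Arntl, −7.09 to 0.08 for Myh2, −6.12 to 0.24 for Adipoq, −4.465 to 0.155 for Retn and −2.825 to 0.535 for Cidec. List medians moved by more than the replicate SD in 41 of 410 alternative values.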
